A study of Sus scrofa with 8 samples.

Results

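RAP1A and RAP1B are small GTPases of the RAS family, and the genes described here are this pair together with regulators that switch them on and off and an effector that reads the active form. Of 10 gene symbols chosen for this switch, 9 matched a row of the deposited count table by their pig Ensembl gene name, out of 24358 rows in all, of which 14692 carry a symbol. The remaining symbol, RAPGEF5, matched no row by name. Receptors upstream of the switch were not counted among its genes.

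RNA-seq was performed on pig induced pluripotent stem cells (piPSCs) to ask how overexpression of the transcription factor IRF-1 changes their transcriptome. The cells, named DOX-hLIF-2i piPSCs, were derived from porcine embryonic fibroblasts with an OCT4-tdTomato reporter by the lentiviral vectors FUW-OSKM and FUW-M2rtTA. According to the study's methods these cells were cultured in medium with doxycycline, CHIR99021, PD0325901, human LIF and porcine LIF. The methods section on overexpression names no medium for the transfected groups, and the sample labels name a culture system called LCDMV. The IRF-1 overexpressing cells were transfected with PB-CAG-IRF1-Flag, in which the constitutive CAG promoter drives the transgene, and the transposase plasmid PCAGPBase, and the control cells with PB-CAG-Flag.

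After puromycin selection the transfected cells were passaged and collected as populations, and feeder cells were largely removed by letting them attach before the suspended cells were lysed. Each group has 2 libraries, replicates 1 and 3 of the IRF-1 overexpressing cells and replicates 6 and 8 of the control cells. The genotype label of all 4 libraries reads as overexpression. Which libraries are controls was therefore taken from the library names listed for control cells in the published legend. Nothing in the labels says whether the libraries of a group came from separate cultures, so p-values measure the spread between these libraries, which may be technical.

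The libraries held 24923319 and 20858333 counts in the IRF-1 overexpressing cells and 15925429 and 17097669 counts in the control cells. A single count was worth between 0.0401 and 0.0628 CPM, the count scaled to the size of its library. Within each group the libraries were further apart than counting noise alone, with a chi-square per degree of freedom of 31.28 in the control cells and 17.92 in the overexpressing cells.

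IRF1 (ENSSSCG00000014277), the gene that was overexpressed, had 8206 and 5485 counts in the libraries of the IRF-1 overexpressing cells and 55 and 56 counts in those of the control cells. The libraries thus separated as grouped. Its log2 fold change was 6.46 (SE 0.21, adjusted p = 3.65e-05, edgeR quasi-likelihood test with Benjamini-Hochberg adjustment over 13250 genes).

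RAP1 proteins are inactive when bound to GDP and active when bound to GTP. Guanine nucleotide exchange factors load GTP after signals from receptors, cAMP or adaptor proteins, and GTPase-activating proteins end the signal by speeding up GTP hydrolysis. Active RAP1 is best known for inside-out activation of integrins and for the strengthening of cadherin junctions, which hold the cells of compact epithelial and pluripotent colonies together.

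Of the 9 genes with a row, 7 had enough counts to be tested and 2, RAPGEF3 and APBB1IP, did not. At an adjusted p under 0.05, 1 of the 7 was higher in the IRF-1 overexpressing cells (RAP1A) and 1 was lower (SIPA1). Among all 13250 tested genes, 13.9% were higher and 15.5% were lower by the same rule, so the share of RAP1 genes called lay close to that of all genes. When a fold change of at least 2 was also required, 0 were higher and 1, SIPA1, was lower, beside 8.61% and 10.6% of all genes. The median log2 fold change was -0.13 over the 7 genes and -0.00 over all tested genes.

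**Figure D1:**
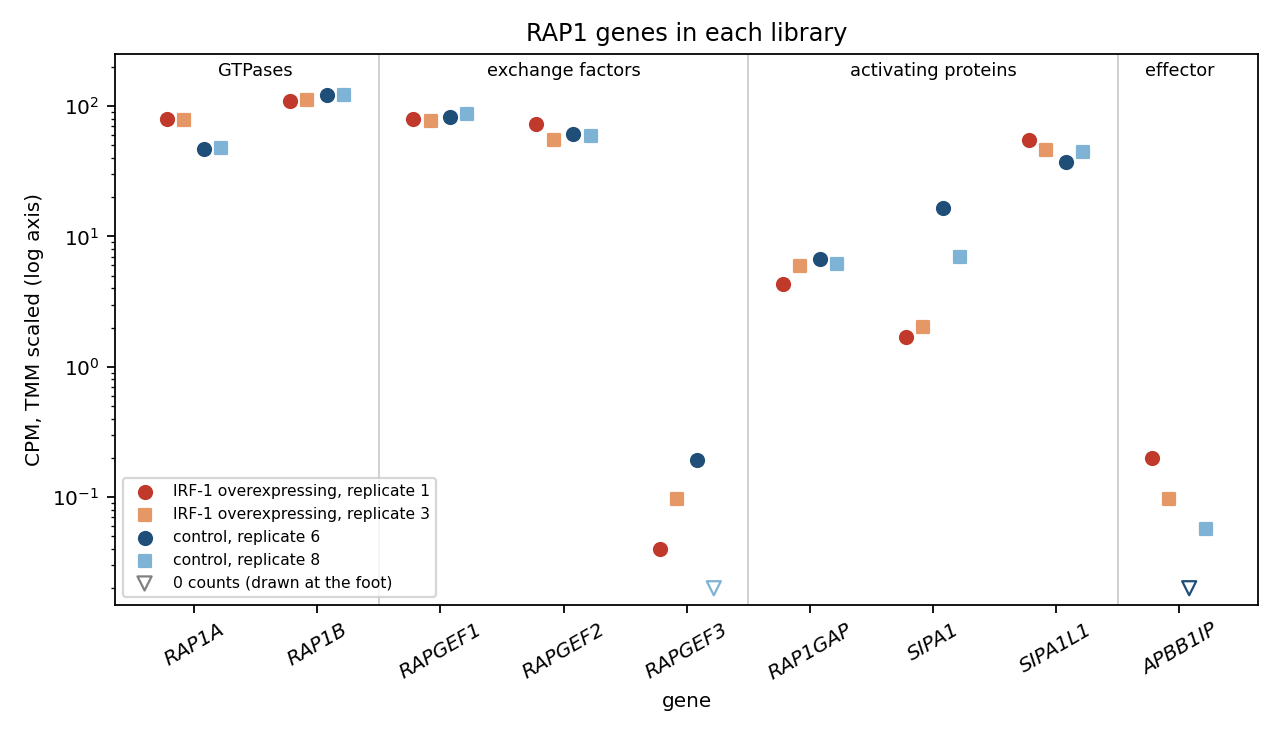
Expression of 9 RAP1 genes in each of the 4 libraries, in CPM scaled by TMM on a log axis, with each point 1 library and open triangles marking 0 counts. RAP1A is higher in both libraries of the IRF-1 overexpressing cells (79.9 and 78.2 CPM against 46.9 and 47.4 CPM), SIPA1 is lower in both (1.69 and 2.02 CPM against 16.5 and 6.92 CPM), and RAPGEF3 and APBB1IP lie near 0.

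Of the GTPases, RAP1A (ENSSSCG00000006785) is a minus-strand gene of chromosome 4, between 108673355 and 108750978 in the pig genome build Sscrofa11.1, which holds for all coordinates given here. It had 1984 and 1627 counts in replicates 1 and 3 of the IRF-1 overexpressing cells, and 733 and 829 counts in replicates 6 and 8 of the control cells. Scaled for library size by the trimmed mean of M-values (TMM), its mean expression with IRF-1 overexpression was 79 ± 1.16 CPM (SD, n = 2), against 47.2 ± 0.341 CPM (SD, n = 2) without it. Both overexpressing libraries lay above both control libraries, by a margin far wider than the spread within either group. RAP1A rose 1.68-fold, a log2 fold change of 0.75 (SE 0.135, 95% interval 0.43 to 1.06, adjusted p = 0.00578 by edgeR). Without overexpressing replicate 1 the log2 fold change was 0.74 and no longer passed the edgeR test, with an adjusted p of 0.0563, which over the 12 alternatives ranged from 0.000392 to that value.

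RAP1B (ENSSSCG00000032595), which encodes a protein nearly identical to RAP1A, lies on the plus strand of chromosome 5, from 32910170 to 32963060. It had 2731 and 2295 counts in the IRF-1 overexpressing libraries and 1892 and 2131 counts in the control libraries. These are 109.9 and 110.3 CPM against 121 and 122 CPM. The groups did not overlap, but the log2 fold change of -0.14 (SE 0.132, 95% interval -0.45 to 0.16) did not pass the test, with an adjusted p of 0.463 by edgeR. How multi-mapped reads were counted is not given in the sources used here, so reads shared by these similar genes or their copies could have been split between them.

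Because the proteins are so alike, the levels of the pair were also summed. The sum was 189.8 and 189 CPM in the IRF-1 overexpressing libraries and 168 and 169 CPM in the control libraries, a ratio of 1.12. The overexpressing libraries were again the higher ones. With 2 libraries per group, an exact two-sided permutation test cannot go below p = 0.333, and the summed level gave that value. RAP1A made up 42.1% and 41.5% of the pair's CPM in the IRF-1 overexpressing cells and 27.9% and 28% in the control cells. Per kilobase of exon, which allows levels to be compared between genes, its part was 33.3% and 32.7% against 21% and 21.1%. RAP1B thus remained the more abundant transcript of the pair in all 4 libraries.

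Of the exchange factors, RAPGEF1 (ENSSSCG00000005719), which is recruited to phosphorylated receptors and docking proteins by the adaptor CRK, lies on the minus strand of chromosome 1, from 271496434 to 271564144. It had 1968 and 1592 counts in the IRF-1 overexpressing libraries and 1292 and 1528 counts in the control libraries, or 79.2 and 76.5 CPM against 82.7 and 87.4 CPM. The control libraries were slightly higher without overlap, and the log2 fold change of -0.13 (SE 0.133, 95% interval -0.44 to 0.18) did not pass the edgeR test, with an adjusted p of 0.517.

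RAPGEF2 (ENSSSCG00000008881), an exchange factor with a PDZ domain, lies on the plus strand of chromosome 8, from 48020695 to 48277458. It had 1823 and 1151 counts in the IRF-1 overexpressing libraries and 947 and 1032 counts in the control libraries. Its expression of 73.4 CPM in overexpressing replicate 1 was above both control libraries (60.6 and 59 CPM), and that of 55.3 CPM in replicate 3 was below both, so the groups overlapped. The log2 fold change was 0.11 (SE 0.17, 95% interval -0.29 to 0.5) with an adjusted p of 0.676 by edgeR, and it turned to -0.10 without overexpressing replicate 1 and to 0.30 without replicate 3.

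RAPGEF3 (ENSSSCG00000023526), an exchange factor opened by direct binding of cAMP, lies on the minus strand of chromosome 5, from 78098801 to 78134156. Only 1 and 2 counts fell on it in the IRF-1 overexpressing libraries and 3 and 0 counts in the control libraries. A value of up to 3 counts in a library was taken as the floor, between 0.1204 and 0.1884 CPM, so RAPGEF3 was at the floor in all 4 libraries and no fold change is given. Floors and counting intervals cover counting error only.

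RAPGEF5 was looked for by position after the counts had been seen. An unnamed row (ENSSSCG00000015383) on the minus strand of chromosome 9, from 90958081 to 91270781, overlaps the RefSeq gene RAPGEF5 of the same build and no other RefSeq gene. It had 85 and 62 counts in the IRF-1 overexpressing libraries and 26 and 43 counts in the control libraries, or 3.42 and 2.98 CPM against 1.66 and 2.46 CPM. The overexpressing libraries were higher without overlap, yet the log2 fold change of 0.63 (SE 0.39, 95% interval -0.28 to 1.54) did not pass the edgeR test, with an adjusted p of 0.268. This row is not counted among the 9.

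The GTPase-activating proteins held the RAP1 gene with the greatest fold change among the 7 tested. SIPA1 (ENSSSCG00000012982), a RAP-specific GTPase-activating protein best known from lymphoid cells, lies on the minus strand of chromosome 2, from 6604880 to 6616184. It had 42 counts in each of the IRF-1 overexpressing libraries, and 258 and 121 counts in replicates 6 and 8 of the control cells. Mean expression with IRF-1 overexpression was 1.85 ± 0.232 CPM (SD, n = 2), against 11.7 ± 6.78 CPM (SD, n = 2) without it. The groups did not overlap, although control replicate 6, at 16.5 CPM, was well above control replicate 8, at 6.92 CPM. SIPA1 fell 6.3-fold, a log2 fold change of -2.66 (SE 0.459, 95% interval -3.72 to -1.59, adjusted p = 0.00479 by edgeR). Leaving out control replicate 6 gave a log2 fold change of -1.90 and leaving out control replicate 8 gave -3.15, and the adjusted p stayed at or below 0.0213 over 12 alternatives, DESeq2 and limma-voom among them.

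Of the 5305 exon bases of SIPA1, 1987 are shared with RELA on the opposite strand. Whether reads were counted by strand is not given in the sources used here, so part of the SIPA1 counts may belong to RELA or may have been discarded. RELA itself had 1178 and 1126 counts in the IRF-1 overexpressing libraries and 848 and 963 counts in the control libraries. These counts are not scaled for library size, and the overexpressing libraries held more counts in total, so they do not show that RELA was higher.

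RAP1GAP (ENSSSCG00000022029), the founding GTPase-activating protein for RAP1, lies on the minus strand of chromosome 6, from 79662137 to 79735361. It had 108 and 123 counts in the IRF-1 overexpressing libraries and 104 and 108 counts in the control libraries, or 4.35 and 5.91 CPM against 6.66 and 6.17 CPM. The overexpressing libraries were lower without overlap, but the log2 fold change of -0.32 (SE 0.307, 95% interval -1.04 to 0.39) did not pass the edgeR test, with an adjusted p of 0.47.

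SIPA1L1 (ENSSSCG00000002332), a relative of SIPA1 known from postsynaptic sites, lies on the plus strand of chromosome 7, from 94790539 to 95171117. It had 1375 and 956 counts in the IRF-1 overexpressing libraries and 585 and 782 counts in the control libraries, or 55.3 and 46 CPM against 37.4 and 44.7 CPM. The nearest libraries of the groups were almost level. The log2 fold change of 0.30 (SE 0.171, 95% interval -0.09 to 0.70) did not pass the edgeR test, with an adjusted p of 0.226, and did so under none of the 12 alternatives.

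The effector APBB1IP (ENSSSCG00000030156), a protein that links active RAP1 to talin and is prominent in leukocytes, lies on the minus strand of chromosome 10, from 49124642 to 49304347. It had 5 and 2 counts in the IRF-1 overexpressing libraries and 0 and 1 counts in the control libraries. Over each group these are 7 counts against 1 count, a ratio of 5.05 with an exact 95% interval of 0.649 to 228, and a difference was not detectable at this depth.

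**Figure D2:**
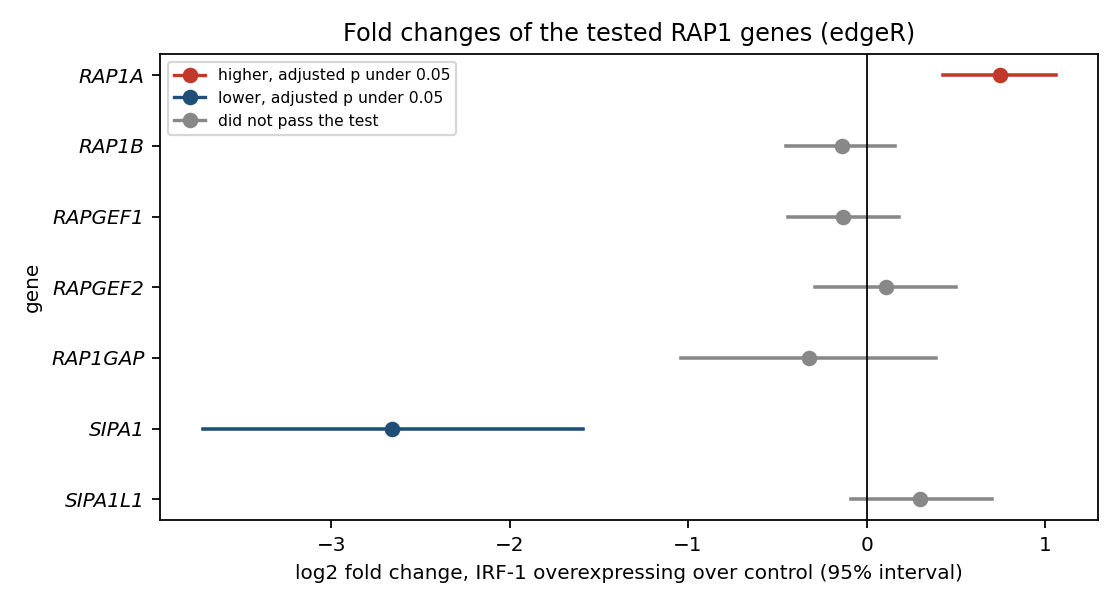
Log2 fold change of the 7 tested RAP1 genes, IRF-1 overexpressing over control cells, as points with 95% intervals from edgeR. The interval of RAP1A (0.43 to 1.06) and that of SIPA1 (-3.72 to -1.59) do not reach 0, and the others do.

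The order of the genes by level was compared per kilobase of exon. In the control cells RAP1B was highest, at 36.7 ± 0.159 CPM per kilobase (SD, n = 2), followed by RAPGEF1 at 26.3, RAP1A at 9.76, RAPGEF2 at 7.47, SIPA1L1 at 3.42, SIPA1 at 2.21 and RAP1GAP at 0.916. In the IRF-1 overexpressing cells the first 5 places were the same, with RAP1B at 33.2, RAPGEF1 at 24.1, RAP1A at 16.4, RAPGEF2 at 8.04 and SIPA1L1 at 4.22 CPM per kilobase. RAP1GAP at 0.732 then stood above SIPA1 at 0.35, so the order of these GTPase-activating proteins was reversed. Neighbours in these orders did not overlap between libraries, except RAPGEF3 and APBB1IP in the control cells, where both were near 0. SIPA1L1 was the most abundant of the GTPase-activating proteins and RAPGEF1 the most abundant of the named exchange factors in both groups.

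Lists of 82 genes held other genes of the pathway and TERF2IP, which only shares the name RAP1. Of the 82, 78 had a row and 71 were tested. Of these, 12 were higher in the IRF-1 overexpressing cells, 22 were lower and 37 did not pass, beside 13.9% higher and 15.5% lower among all tested genes. TERF2IP is 1 of the 12, and it is included wherever the pathway lists are counted together. The median log2 fold change of the 71 was -0.13. Leaving out overexpressing replicate 1 gave 4 higher and 14 lower genes, and leaving out replicate 3 gave 7 and 14. Over all genes the same fits called 858 higher and 967 lower of 13507 without replicate 1, and 1334 and 1399 of 13614 without replicate 3. The adjusted p-values in the paragraphs on these lists are from the same edgeR test over all genes.

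**Figure D3:**
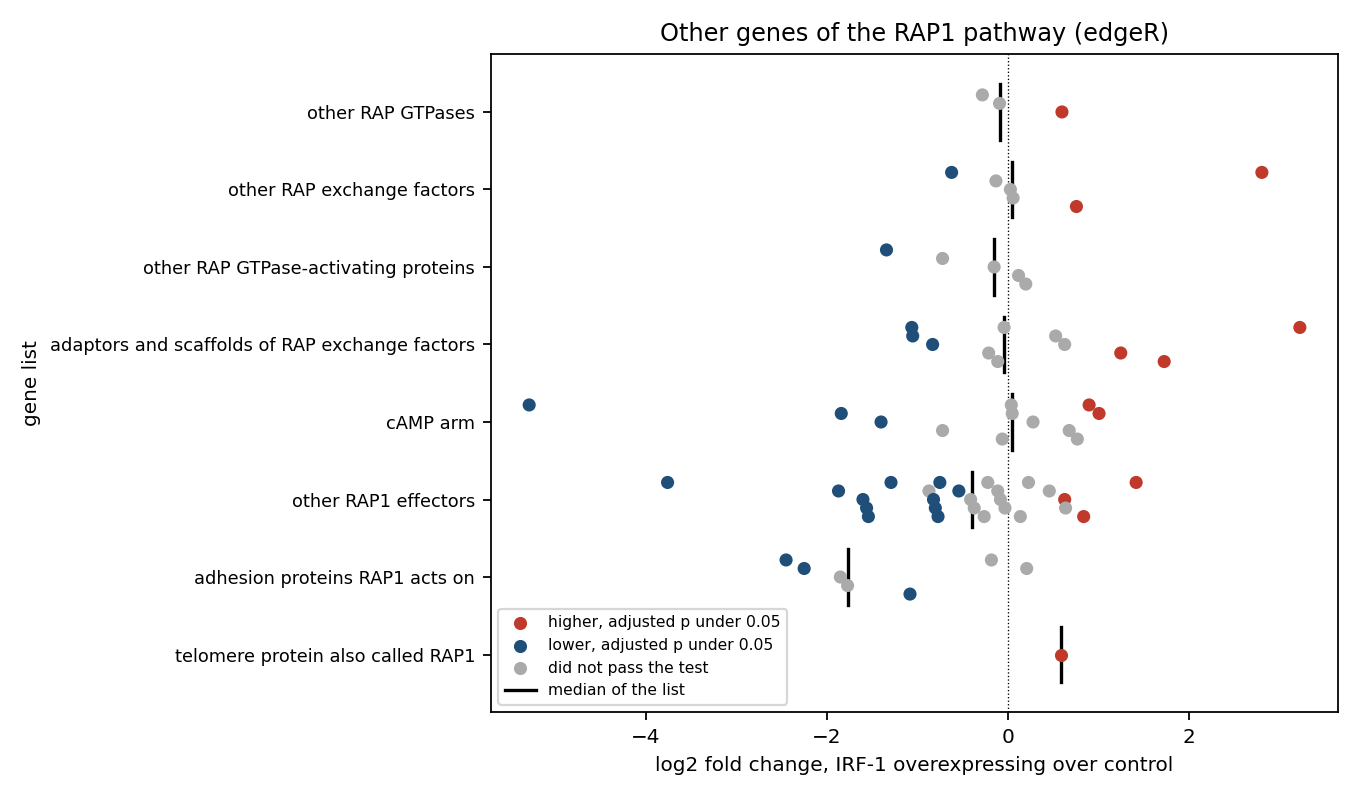
Log2 fold change, IRF-1 overexpressing over control cells, of 71 tested genes in 8 lists. Each point is 1 gene and black bars mark the median of a list. The lists cover the RAP1 pathway, except 1 that holds only TERF2IP, which shares the name RAP1. The adhesion proteins have the lowest median (-1.77), which is the value of ITGB3, a gene that did not pass. The effector list also holds proteins further along the route. Of its 26 genes 11 were lower and 3 higher, where 15.5% of all tested genes were lower and 13.9% higher.

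Among the other RAP GTPases, 1 of 3 rose, beside 13.9% of all tested genes. RAP2A had 79.6 and 74.4 CPM in the IRF-1 overexpressing libraries and 49.6 and 51.9 CPM in the control libraries, a log2 fold change of 0.60 (SE 0.137, edgeR adjusted p = 0.0146). It was not called by edgeR without overexpressing replicate 1 (0.57, adjusted p = 0.14) or replicate 3 (0.65, adjusted p = 0.0673). RAP2B (-0.09) and RAP2C (-0.28) did not pass.

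Of 6 tested exchange factors beyond those above, 2 rose and 1 fell, beside 13.9% and 15.5% of all tested genes. PLCE1, a phospholipase with an exchange factor domain for RAP1, had 14.6 and 7.45 CPM in the IRF-1 overexpressing libraries and 1.73 and 1.43 CPM in the control libraries. It rose 6.99-fold, a log2 fold change of 2.81 (SE 0.419, edgeR adjusted p = 0.00264), and by 2.25 on the log2 scale without overexpressing replicate 1. RAPGEF4, the cAMP-sensing relative of RAPGEF3, had 32.4 and 24.5 CPM against 15.2 and 18.3 CPM, a log2 fold change of 0.76 (SE 0.215, edgeR adjusted p = 0.0323). RAPGEF4 was thus expressed where RAPGEF3 was at the floor. DOCK4 was lower, with a log2 fold change of -0.62 (SE 0.179, edgeR adjusted p = 0.0359). The edgeR test no longer called RAPGEF4 without overexpressing replicate 1 (0.56, adjusted p = 0.249) or control replicate 6 (0.64, adjusted p = 0.0778). DOCK4 was not called by edgeR without overexpressing replicate 1 (-0.72, adjusted p = 0.108), overexpressing replicate 3 (-0.50, adjusted p = 0.22) or control replicate 8 (-0.51, adjusted p = 0.0909).

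Of 5 other GTPase-activating proteins, 1 fell, beside 15.5% of all tested genes. RASA3, which acts on both RAS and RAP1, had 30.5 and 45.9 CPM in the IRF-1 overexpressing libraries and 104 and 90.0 CPM in the control libraries. All 4 libraries followed their group, with a log2 fold change of -1.34 (SE 0.21, edgeR adjusted p = 0.00322) that passed under each of 12 alternatives. RAP1GAP2 (-0.72, edgeR adjusted p = 0.0622), SIPA1L2 (-0.15) and SIPA1L3 (0.20) did not pass.

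Among 11 tested adaptors and scaffolds of the exchange factors, 3 rose, 3 fell and 5 did not pass, beside 13.9% higher and 15.5% lower over all tested genes. CRK, the partner of RAPGEF1, was among those that did not, with a log2 fold change of -0.11. The MAGI scaffolds, which bind RAPGEF2 and sit at cell junctions, moved in different directions. MAGI1 had 161 and 136 CPM in the IRF-1 overexpressing libraries and 56.2 and 68.2 CPM in the control libraries, a log2 fold change of 1.25 (SE 0.165, edgeR adjusted p = 0.0016). MAGI2 was also higher, with a log2 fold change of 1.73 (SE 0.397, edgeR adjusted p = 0.0149). MAGI3 was lower, at 16.5 and 10.7 CPM against 27.5 and 29.4 CPM, a log2 fold change of -1.06 (SE 0.241, edgeR adjusted p = 0.0146), and 1279 of its exon bases are shared with PHTF1 on the opposite strand. FYB1, a partner of SKAP proteins in leukocytes, had 28 counts in the overexpressing cells and 2 in the control cells, a ratio of 10.1 with an exact 95% interval of 2.55 to 87.5. BCAR1 (-1.05, SE 0.243, adjusted p = 0.0154) and the kinase SRC (-0.83, SE 0.199, adjusted p = 0.0177), which act upstream of CRK at focal adhesions, fell in the edgeR test.

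Of these 6 calls, that of MAGI1 alone held under each alternative. In edgeR fits without overexpressing replicate 1, the adjusted p was 0.13 for MAGI2 (log2 fold change 1.41), 0.142 for FYB1 (3.36), 0.107 for BCAR1 (-0.81) and 0.115 for SRC (-0.75). Without overexpressing replicate 3 it was 0.0745 for MAGI3 (-0.78) and 0.0522 for SRC (-0.89) in edgeR. Without control replicate 6 it was 0.164 for FYB1 (2.37) and 0.0553 for SRC (-0.59) in edgeR. Without control replicate 8, which leaves a control library with 0 counts, the log2 fold change of FYB1 was 6.67, and with all libraries DESeq2 gave an adjusted p of 0.153 for FYB1.

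In the cAMP arm, which feeds RAPGEF3 and RAPGEF4, 2 of 12 tested genes rose and 3 fell, and over all tested genes the shares were 13.9% and 15.5%. ADCY6, an adenylyl cyclase, had 22 and 26.5 CPM in the IRF-1 overexpressing libraries and 64.3 and 63.5 CPM in the control libraries, a log2 fold change of -1.40 (SE 0.162, edgeR adjusted p = 0.00102). ADCY3 went the other way, with 42 and 40.8 CPM against 19.8 and 21.3 CPM and a log2 fold change of 1.01 (SE 0.162, edgeR adjusted p = 0.00361). ADCY4 had 4 and 2 counts against 93 and 83 counts, a log2 fold change of -5.29 (SE 0.519, edgeR adjusted p = 0.000628), and shares 585 exon bases with RIPK3 on the same strand. These cyclases differ in direction, so the list had no common one, and its median was 0.04. ADCY5 (-1.84, SE 0.458, adjusted p = 0.0204) was lower and the phosphodiesterase PDE4D (0.90, SE 0.268, adjusted p = 0.0392) higher by edgeR. Neither of those calls held in edgeR without overexpressing replicate 1 (-1.70, adjusted p = 0.108, and 0.78, adjusted p = 0.234) or without overexpressing replicate 3 (-1.96, adjusted p = 0.0533, and 1.03, adjusted p = 0.0822). ADCY5 was not called by edgeR without control replicate 6 (-1.21, adjusted p = 0.094), nor PDE4D without control replicate 8 (0.73, adjusted p = 0.0936).

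In the list of other RAP1 effectors, which also holds proteins that act beside RAP1 or further along its route, 26 genes were tested. Of these, 3 rose, 11 fell and 12 did not pass, against 13.9% of all tested genes higher and 15.5% lower. The median log2 fold change of the 26 was -0.39. ARHGAP29, which RAP1 recruits through RASIP1 and RADIL, had 9.18 and 11.8 CPM in the IRF-1 overexpressing libraries and 49.2 and 27.4 CPM in the control libraries. It fell by 1.87 on the log2 scale (SE 0.299, edgeR adjusted p = 0.00352), and by 1.39 without control replicate 6. PRKCZ, an atypical protein kinase C of the polarity complex, had 9.62 and 21.4 CPM against 55.2 and 38.4 CPM, a log2 fold change of -1.60 (SE 0.361, edgeR adjusted p = 0.0141) that was -1.11 without overexpressing replicate 1 and -2.28 without replicate 3. ARAP3 had 5 and 0 counts against 38 and 12 counts, a log2 fold change of -3.76 (SE 1.02, edgeR adjusted p = 0.0281). RADIL (1.42, SE 0.362, adjusted p = 0.0221), the actin regulator EVL (0.84, SE 0.146, adjusted p = 0.00497) and VAV2 (0.63, SE 0.141, adjusted p = 0.0133) rose in the edgeR test. On the opposite strand, EVL shares 2947 exon bases with DEGS2, RADIL 1363 with AP5Z1 and PRKCZ 759 of its 2687 with FAAP20.

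Some calls in the effector list were lost when a library was left out. In edgeR, RADIL was not called without overexpressing replicate 1 (0.96, adjusted p = 0.17), nor VAV2 without overexpressing replicate 1 (0.65, adjusted p = 0.0969) or replicate 3 (0.64, adjusted p = 0.0839). ARAP3 was not called by edgeR without overexpressing replicate 3 (-2.90, adjusted p = 0.0919) or control replicate 6 (-2.61, adjusted p = 0.153), and dropping overexpressing replicate 1, which leaves a library with 0 counts, gave a log2 fold change of -7.80.

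The talins and kindlins, which bind integrin tails at the end of the RAP1 route, were singled out after their values were seen. TLN1 had 92.9 and 109 CPM in the IRF-1 overexpressing libraries and 239 and 254 CPM in the control libraries, a log2 fold change of -1.29 (SE 0.147, edgeR adjusted p = 0.001). TLN2 had 66.8 and 119 CPM against 283 and 256 CPM, a log2 fold change of -1.54 (SE 0.255, edgeR adjusted p = 0.00409). FERMT2 had 39.5 and 56 CPM against 134 and 147 CPM, a log2 fold change of -1.56 (SE 0.19, edgeR adjusted p = 0.00123). TLN1 shares 373 of its 10500 exon bases with CREB3 on the opposite strand and 291 with an unnamed row on the same strand. In each of these genes both control libraries were above both overexpressing libraries, and each call held under 12 alternatives. FERMT1 (-0.22) and FERMT3 (0.64) did not pass.

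Of 7 tested adhesion proteins, 3 fell and 4 did not pass, where 15.5% of all tested genes were lower. Their median log2 fold change was -1.77, the value of ITGB3, which did not pass (edgeR adjusted p = 0.0989). ITGB3 was low, at 0.282 and 1.25 CPM with IRF-1 overexpression against 3.52 and 1.66 CPM without it. ITGAL (-1.85, edgeR adjusted p = 0.143) was also low, overlapped between the groups and did not pass. ITGB1, the most widely shared integrin beta chain, had 139 and 150.0 CPM in the IRF-1 overexpressing libraries and 312 and 296 CPM in the control libraries, a log2 fold change of -1.08 (SE 0.133, edgeR adjusted p = 0.0013). ITGB2, the leukocyte integrin beta chain, had 7.29 and 16.9 CPM against 77.7 and 53.9 CPM, a log2 fold change of -2.45 (SE 0.377, edgeR adjusted p = 0.00303). CDH1, which encodes E-cadherin, had 25.4 and 74 CPM against 240.2 and 232 CPM, a log2 fold change of -2.25 (SE 0.423, edgeR adjusted p = 0.00676). Overexpressing replicate 1 was the lowest library for all 3 genes. Without it the log2 fold change was -1.94 for ITGB2 and -1.66 for CDH1, and without overexpressing replicate 3 it was -3.17 and -3.21. The catenins CTNNB1 (0.21) and CTNND1 (-0.18), which join cadherins to the cytoskeleton, did not pass.

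TERF2IP, a telomere protein that is also called RAP1 but is no GTPase, had 108 and 102 CPM in the IRF-1 overexpressing libraries and 70.2 and 69 CPM in the control libraries. Of its 2617 exon bases, 679 are shared with KARS1 on the opposite strand. Its log2 fold change was 0.59 (SE 0.134, edgeR adjusted p = 0.0141). In edgeR it was not called without overexpressing replicate 1 (0.56, adjusted p = 0.138) or replicate 3 (0.64, adjusted p = 0.0697).

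The cell type was checked against markers. Calls in this and the following marker lists stand beside 13.9% higher and 15.5% lower among all tested genes. Of 12 pluripotent cell markers 6 had a row and 5 were tested, and SOX2 and POU5F1 were not matched by name. LIN28A was the most abundant per kilobase. The summed level of the 6 was 1234 and 1277 CPM in the IRF-1 overexpressing libraries and 1480.2 and 1642 CPM in the control libraries, and DNMT3B, its largest part in each library, did not pass (log2 fold change 0.27). By edgeR 3 of the 5 fell and 0 rose, namely ESRRB (-4.19, adjusted p = 0.000246), CDH1 (-2.25, adjusted p = 0.00676) and LIN28A (-1.34, adjusted p = 0.00146). The study names LIN28A as a pluripotency gene and also links it to the primed state, which it describes as close to differentiation. CDH1 was also counted among the adhesion proteins above. NANOG was low in all 4 libraries, with 8 and 11 counts against 5 and 9 counts.

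Markers of other cells also moved with the groups, and their part in the RAP1 results was not tested. The 7 matched of 8 markers of trophoblast or simple epithelium, led by KRT8, summed to 277 and 1113 CPM in the IRF-1 overexpressing libraries and to 15593 and 9549 CPM in the control libraries, with KRT7, CDX2 and EOMES at or under 3 counts throughout. Nearly all of this sum came from KRT8 and KRT18. By edgeR 3 of 4 tested, KRT8, KRT18 and TFAP2C, fell under each of 12 alternatives, and GATA3 (0.07) did not pass. The list was highest in control replicate 6, as were SIPA1 and the summed fibroblast markers. The summed endothelial and pluripotent cell markers were highest in control replicate 8, and those of neurons and leukocytes in overexpressing replicate 1. Whether any of these orders is related to SIPA1 was not tested. The 6 matched of 8 endothelial markers, led by TEK, summed to 3.54 and 6.83 CPM against 59.3 and 65.5 CPM, with CDH5 and EMCN at the floor. TEK alone gave 54.7 and 62.1 CPM of the control sums. By edgeR TEK and TIE1 (-3.09, adjusted p = 0.0107) fell, and PECAM1 (-0.35) and KDR (-2.57, adjusted p = 0.0713) did not pass. The edgeR call of TIE1 was lost without overexpressing replicate 1 (-3.50, adjusted p = 0.0548), overexpressing replicate 3 (-2.79, adjusted p = 0.0638) or control replicate 6 (-2.44, adjusted p = 0.0651).

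The sums of the other lists likewise mixed genes that moved differently. The 9 matched of 10 fibroblast markers, with LUM and COL6A3 at the floor, summed to 165 and 121 CPM against 295 and 166 CPM. By group mean per kilobase, COL1A2 was the most abundant in the overexpressing cells and PDGFRB in the control cells. In control replicate 8, however, FBLN1 (9.88 CPM per kilobase) was above PDGFRB (9.74). Of 5 tested, 4 fell by edgeR, namely PDGFRB (-5.49, adjusted p = 0.000595), DCN (-3.63, adjusted p = 0.00651), COL1A1 (-1.97, adjusted p = 0.00547) and FBLN1 (-1.48, adjusted p = 0.00558). COL1A2 alone rose (1.08, edgeR adjusted p = 0.0301). In edgeR, COL1A2 was not called without overexpressing replicate 1 (0.65, adjusted p = 0.184), nor DCN without overexpressing replicate 3 (-3.18, adjusted p = 0.0557). Without overexpressing replicate 1 DCN was at -4.38, and PDGFRB was at -6.32 without overexpressing replicate 3 and at -4.79 without control replicate 6.

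The 8 neuron markers, none of them at the floor, summed to 1175 and 834 CPM against 802 and 733 CPM. By group mean per kilobase, STMN2 was the most abundant in the overexpressing cells and NCAM1 in the control cells. In overexpressing replicate 1, however, TUBB3 (144 CPM per kilobase) was above STMN2 (143). Much of this sum came from NCAM1, which did not pass (-0.40). By edgeR 4 of the 8 rose, namely TUBB3 (4.80, adjusted p = 0.000961), SYT1 (3.19, adjusted p = 0.00403), SNAP25 (1.97, adjusted p = 0.0123) and STMN2 (1.69, adjusted p = 0.00636), and MAP2 fell (-0.66, adjusted p = 0.0375). Both SNAP25 (1.53, adjusted p = 0.0709) and MAP2 (-0.42, adjusted p = 0.312) lost the edgeR call without overexpressing replicate 1, and MAP2 also without control replicate 8 (-0.51, adjusted p = 0.0652). Without overexpressing replicate 1 the log2 fold change was 3.81 for TUBB3 and 1.07 for STMN2. It was 5.39 for TUBB3 without overexpressing replicate 3, 3.93 for SYT1 without control replicate 8 and 2.63 for SNAP25 without control replicate 6.

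The 8 leukocyte markers summed to 31.8 and 23.7 CPM against 12.8 and 9.61 CPM. CORO1A accounted for the difference, with 25.1 and 16.8 CPM against 3.65 and 3.2 CPM and a log2 fold change of 2.61 (SE 0.289, edgeR adjusted p = 0.000912). CD68, the most abundant per kilobase by group mean, did not pass (-0.15), and PTPRC, CD3E and CD48 were at the floor. In overexpressing replicate 1 CORO1A (3.63 CPM per kilobase) was above CD68 (3.56). SIPA1, APBB1IP, FYB1 and ITGB2 are genes best known from leukocytes. In these bulk libraries, fewer cells of a type and less RNA per cell cannot be told apart.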

How the data were processed

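According to the study's methods and processing notes, reads were filtered with trim_galore, mapped to Sscrofa11.1 with HISAT2 and counted with featureCounts 1.6.4, and htseq-count is also named. The authors deposited whole-number counts per gene, not normalized, with the exon length of each gene as another, annotation value. Which annotation release was used, whether counting was by strand and how multi-mapped reads were handled is not given in the sources used here. The ChIP-Seq libraries were not analysed here.

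Counts of the 4 RNA-seq libraries were fitted with edgeR 4.0.16 in R 4.3.3, using TMM factors (0.9817 to 1.0235), filterByExpr by group and the quasi-likelihood test, with p-values adjusted by Benjamini-Hochberg over 13250 genes. The SE was taken as the size of the log2 fold change divided by the square root of F, and 95% intervals from it. CPM values use library totals times TMM factors. Ratios of low counts have exact Clopper-Pearson intervals. The fit was tested on simulated data. Python 3.11.15 was used for tables (pandas 2.3.3, numpy 2.4.6, scipy 1.17.1) and for figures (matplotlib 3.10.9).

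The RAP1 genes and the lists were chosen with earlier results of these data known. The genes named are the 10 listed symbols, IRF1, TERF2IP, up to 3 higher and 3 lower genes per pathway list with the greatest fold change among those called, and in each marker list the most abundant gene per kilobase and those at the floor. TLN1, TLN2, FERMT2, list genes that were not called and the other markers are named after their values were seen. GNAS, RAPH1, VAV3 and ITGA2B matched no row by name. Results for some single genes of the lists are not reported here.

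Alternatives were scaling by RLE, by upper quartile or by library totals alone, no filter or 1 CPM in 2 libraries, DESeq2 1.42.0, limma-voom (limma 3.58.1), a fold of at least 2, the counts without 37 mitochondrial and the 10 most counted genes, and each library left out. All but the fold of at least 2 were applied to the named pathway genes and markers that passed the test, and unnamed rows were looked up by RefSeq position, after the data had been seen.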

Additional observations from a re-analysis of the deposited data

How the results depend on the processing

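The 12 alternatives left 6 of 7 RAP1 genes on the same side of the threshold. Without overexpressing replicate 1, RAP1A no longer passed the edgeR test (adjusted p = 0.0563), so that 0 RAP1 genes were higher, and RAPGEF2, which was never called, reversed from 0.11 to -0.10 (0.30 without overexpressing replicate 3). Leaving out each library in turn, the number of RAP1 genes higher ranged from 0 to 1. That of all genes higher ranged from 858 to 2119 and of all genes lower from 967 to 2274, beside 1842 and 2054 with all libraries. These fits rest on 3 libraries, and the lone library of a group is assumed to vary like the others. With a log2 fold change of at least 1 also required, 0 RAP1 genes and 1141 of all genes were higher. With library totals alone, the log2 ratio of the summed level of RAP1A and RAP1B was 0.16 instead of 0.17. Of 26 genes named by rule from the pathway lists, 12 were called at an adjusted p under 0.05 under each alternative that tested them (a fold minimum was not among these), 14 lost their call under at least 1, and 0 reversed. TLN1, TLN2 and FERMT2, named besides, were called under all 12. No paired analysis was possible because the groups share no replicate number. Depth limits RAPGEF3 and APBB1IP, for which a single count is worth up to 0.0628 CPM.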

Other observations

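GNAS, which encodes the G protein alpha subunit that stimulates adenylyl cyclases, matched no row by name. At its RefSeq position on chromosome 17, an unnamed row (ENSSSCG00000033041, 58985580 to 59055340) had 10136 and 7456 counts in the IRF-1 overexpressing libraries and 881 and 524 counts in the control libraries. Its log2 fold change was 3.15 (SE 0.288, edgeR adjusted p = 0.0005). A further unnamed row there (ENSSSCG00000007520) had 2894 and 1838 counts against 747 and 396 counts, a log2 fold change of 1.54 (SE 0.323, edgeR adjusted p = 0.0104). The rows share 4277 exon bases on the same strand and also overlap another RefSeq gene, so their reads cannot be assigned to 1 transcript. Both were found by position after the counts had been seen, and further unnamed rows lie there. Of these, ENSSSCG00000034304 (log2 fold change 2.50), ENSSSCG00000035913 (3.71) and ENSSSCG00000033187 (2.34) were also higher by edgeR. The others had too few counts to be tested. Among the latter, ENSSSCG00000032457, on the opposite strand, shares 771 and 774 exon bases with the rows described.

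At the RefSeq position of RAPH1, a relative of APBB1IP, an unnamed row (ENSSSCG00000016119), which also overlaps another RefSeq gene, had 283 and 157 counts in the IRF-1 overexpressing libraries and 201 and 338 counts in the control libraries. These are 11.4 and 7.55 CPM against 12.9 and 19.3 CPM, and the log2 fold change of -0.76 (SE 0.301) did not pass the edgeR test, with an adjusted p of 0.0974. At the position of VAV3, 3 unnamed rows, 1 of which also overlaps another RefSeq gene, had log2 fold changes of 0.87, 0.53 and 0.35, and none passed the edgeR test, with adjusted p-values of 0.194, 0.421 and 0.412.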
